A study of Mus musculus with 16 samples.

Results

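The claudins and connexins of the mouse limb bud were described from the deposited gene counts. Members were taken by symbol: every gene named Cldn or Gja, Gjb, Gjc, Gjd or Gje followed by a number. This gave 43 genes, 23 claudins and 20 connexins, of 53800 genes in the table. The samples were ectoderm and mesoderm of the distal forelimb of B6 mouse embryos at the 4 stages E9.5, then E10.5, E11.5 and finally E12.5 (embryonic day), with no allele or treatment named in the labels. The layers were loosened with trypsin and pulled apart with forceps, and each of the 8 groups had 2 libraries, so n = 2 throughout, and each pair of values below gives replicate 1 first. Ectoderm and mesoderm libraries with the same replicate number at a stage came from the same batch of embryos, whose number is not stated. RNA of replicate 1 and replicate 2 was purified with different kits at every stage. Total gene counts were between 10005867 and 30438214 per library.

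Claudins are membrane proteins that line up into the strands of tight junctions, where some tighten the seal between epithelial cells and others form pores for selected ions. Connexins assemble into gap junction channels, through which ions and small molecules pass between neighbouring cells. The limb ectoderm is a thin embryonic epithelium that later becomes epidermis, a tissue whose water barrier depends on claudins and in which several connexins are linked to inherited human skin disease. Limb mesoderm holds loose mesenchyme and blood vessels, and endothelial cells have claudins and connexins of their own.

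Most family members with enough reads were ectodermal. Of the 43 genes, 23 passed the filter on low counts, 14 claudins and 9 connexins, and 20 of these reached a mean of 5 CPM (counts per 1000000 of a library's effective size) in at least 1 group. In the average over the 4 stages, 14 members were higher and 6 were lower in ectoderm than in mesoderm at an edgeR adjusted p under 0.05, beside 45.7 percent of all 15501 genes tested (24.3 percent higher, 21.4 percent lower). The median log2 difference of the 23 members, ectoderm over mesoderm, was 4.35, against 0.0098 for all genes tested. Claudins had a median of 4.56 and connexins one of 1.63. These medians were the same with folds against groups without a count set at their lower bound. Only 2 claudins and 1 connexin had such folds, all away from the medians, so this match is no check on them. A gene that passed the filter through the layer where it is high was bound to differ between layers, so these shares describe the tested members and not all 43. In bulk RNA, fewer cells of a type and less RNA per cell cannot be told apart.

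The markers of surface epithelium, endothelium and limb mesenchyme matched the layer labels, while some other lists were mixed. Of 6 smooth muscle and pericyte markers tested, 2 were higher and 3 lower in ectoderm. Of 5 glia and melanoblast markers tested, 1 was higher and 1 lower, and of 3 muscle precursor markers 1 was higher and 0 lower. All 10 surface epithelium markers, among them Epcam, Cdh1 and Trp63, were higher in ectoderm, with sums of 2197 to 7143 CPM in the ectoderm libraries and 6.04 to 84.96 CPM in the mesoderm libraries. All 10 endothelial markers were lower in ectoderm, summing to 5.32 to 30.0 CPM there and to 382 to 697 CPM in the mesoderm libraries. Of 10 limb mesenchyme markers, 9 were lower in ectoderm, where their median was 4.46 to 19.8 percent of the same batch's mesoderm in 7 libraries and 44.1 percent in ectoderm E11.5 replicate 1. That library stood apart from the others in these markers, and its share is given beside the results of Cldn10, Gja3 and Gjc1. In ectoderm E9.5 replicate 2 the median erythroid marker was at 27.9 percent of the same batch's mesoderm, the highest of the ectoderm libraries.

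**Figure D1:**
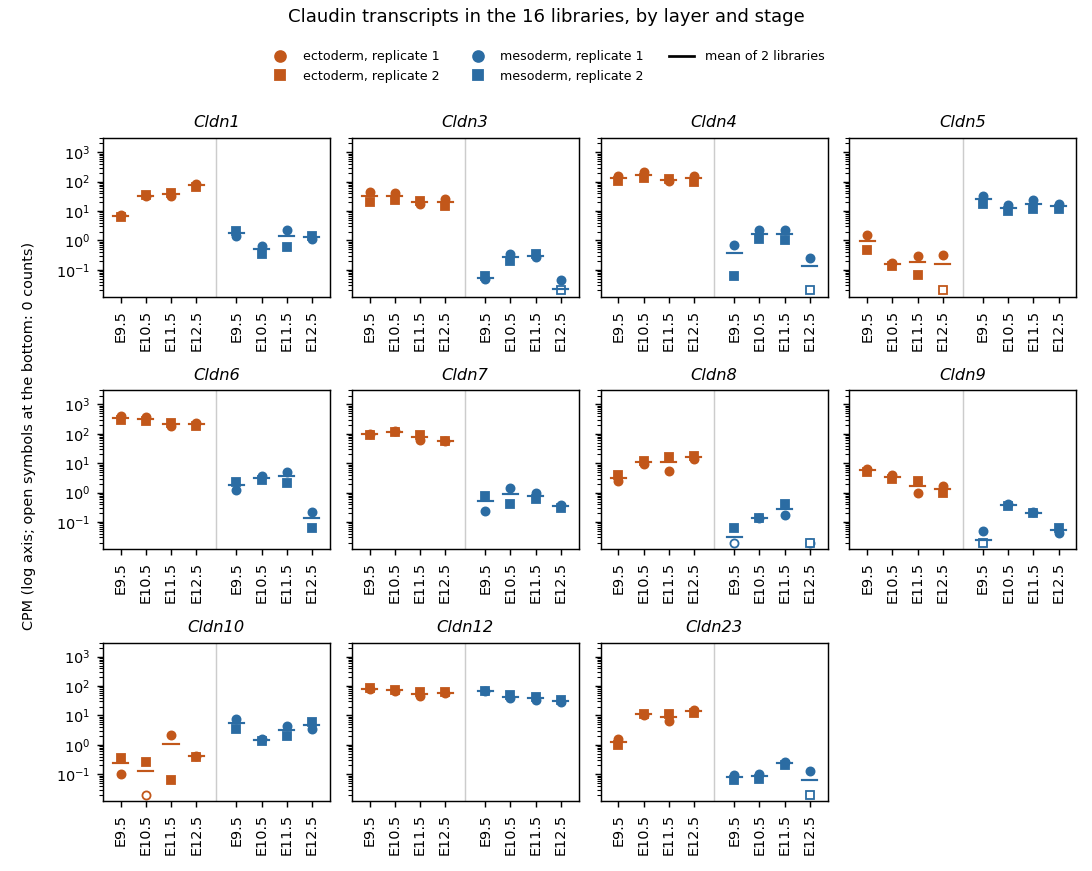
CPM of the 11 claudins with a mean of at least 5 CPM in a group, on a log axis, with each library as a point (circles replicate 1, squares replicate 2), ectoderm on the left and mesoderm on the right of each panel, and a line at the mean of 2 libraries. Cldn6 stood between 183 and 416 CPM in the ectoderm libraries, above its 0.0610 to 5.06 CPM in mesoderm, and Cldn5 showed the opposite layer order.

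Cldn3, Cldn4, Cldn6 and Cldn7 were ectodermal at every stage. Cldn6, a claudin of embryonic epithelia and pluripotent cells, had 416 and 303 CPM in ectoderm (E9.5), 369 and 266 (E10.5), 183 and 242 (E11.5) and then 241 and 189.5 (E12.5). Mesoderm held 1.24 and 2.34 CPM (E9.5), 3.79 and 2.59 (E10.5), 5.05 and 2.198 (E11.5) and then 0.218 and 0.0610 (E12.5). Its 8 ectoderm libraries all lay above its 8 mesoderm libraries, and the log2 difference averaged over stages was 7.63 (SE 0.26, edgeR adjusted p = 1.32e-09). Cldn4, an epithelial claudin that with Cldn3 is a receptor of a clostridial enterotoxin, had 155 and 106 CPM in ectoderm (E9.5), 209 and 138 (E10.5), 107 and 119 (E11.5) and then 159 and 97.3 (E12.5). Mesoderm held 0.716 and 0.0615 CPM (E9.5), 2.28 and 1.09 (E10.5), 2.22 and 0.999 (E11.5) and then 0.262 and 0 (E12.5). The layers did not overlap, the E12.5 mesoderm library of replicate 2 had no count, and the difference was 7.66 (SE 0.37, edgeR adjusted p = 1.56e-08). Cldn7, which is found at the sides of many epithelial cells as well as in tight junctions, had 102 and 89.6 CPM in ectoderm (E9.5), 122 and 112 (E10.5), 60.2 and 92.2 (E11.5) and then 57.3 and 57.0 (E12.5). Mesoderm held 0.239 and 0.799 CPM (E9.5), 1.45 and 0.409 (E10.5), 0.976 and 0.599 (E11.5) and then 0.392 and 0.305 (E12.5). All ectoderm libraries exceeded all mesoderm libraries, with a difference of 7.07 (SE 0.27, edgeR adjusted p = 2.49e-09). Cldn3, a sealing claudin of many epithelia, had 44.7 and 20.4 CPM in ectoderm (E9.5), 40.0 and 23.2 (E10.5), 17.8 and 22.2 (E11.5) and then 25.2 and 15.1 (E12.5). Mesoderm held 0.0478 and 0.0615 CPM (E9.5), 0.345 and 0.205 (E10.5), 0.266 and 0.333 (E11.5) and then 0.0436 and 0 (E12.5). Its layers were also separate, with a difference of 7.78 (SE 0.32, edgeR adjusted p = 4.01e-09). Cldn3 shares 40 exonic bases with Wbscr25 on the other strand, and whether the counting used strand is not stated.

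Traces of these transcripts in mesoderm were low beside those in ectoderm. The median surface epithelium marker of a mesoderm library was at 0.1004 to 2.22 percent of its level in the same batch's ectoderm. Cldn6 was at 0.0322 to 2.77 percent, Cldn4 at 0 to 2.07 percent, Cldn3 at 0 to 1.497 percent and Cldn7 at 0.235 to 1.62 percent on the same measure. For the markers, Cldn4, Cldn6 and Cldn7 the highest of the 8 mesoderm libraries was E11.5 replicate 1. For the markers, Cldn3, Cldn4 and Cldn6 the lowest was E12.5 replicate 2, while Cldn7 was lowest in E9.5 replicate 1 and held 0.684 and 0.534 percent at E12.5, where the markers held 0.24 and 0.1004 percent. The part of epithelial cells in these mesoderm values was not tested.

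Cldn1, Cldn8, Cldn9 and Cldn23 were ectodermal too, with more change between stages. On FPKM (fragments scaled by transcript length and library size), Cldn8, Cldn9 and Cldn23 had means below that of Cldn3 at every ectoderm stage. Cldn1 was below Cldn3 in ectoderm at E9.5 (1.65 against 20.9 FPKM) and above it at E12.5 (19.0 against 13.1 FPKM). Cldn1, which mice need for the epidermal water barrier, had 7.07 and 6.21 CPM in ectoderm (E9.5), 32.2 and 35.4 (E10.5), 32.8 and 42.0 (E11.5) and then 82.3 and 67.8 (E12.5). Mesoderm held 1.43 and 2.15 CPM (E9.5), 0.655 and 0.341 (E10.5), 2.31 and 0.599 (E11.5) and then 1.09 and 1.46 (E12.5). Ectoderm was above mesoderm in every library, and the gap was narrowest at E9.5. The difference averaged over stages was 4.59 (SE 0.24, edgeR adjusted p = 2.78e-08). Cldn8, a barrier claudin known from kidney tubules, had 2.53 and 3.86 CPM in ectoderm (E9.5), 9.58 and 11.9 (E10.5), 5.41 and 16.4 (E11.5) and then 14.1 and 17.9 (E12.5). Mesoderm held 0 and 0.0615 CPM (E9.5), 0.138 and 0.136 (E10.5), 0.177 and 0.400 (E11.5) and then 0 and 0 (E12.5). No mesoderm library reached the lowest ectoderm library, and both E12.5 mesoderm libraries were at 0, so that E12.5 ectoderm stood at least 205-fold higher. Its averaged difference was 7.30 (SE 0.42, edgeR adjusted p = 1.73e-07). Cldn9, a claudin needed in the inner ear, had 6.22 and 5.19 CPM in ectoderm (E9.5), 4.08 and 2.94 (E10.5), 0.980 and 2.45 (E11.5) and then 1.69 and 0.989 (E12.5). Mesoderm held 0.0478 and 0 CPM (E9.5), 0.414 and 0.341 (E10.5), 0.222 and 0.200 (E11.5) and then 0.0436 and 0.0610 (E12.5). The layers were separate, ectoderm was highest at E9.5, and the averaged difference was 4.52 (SE 0.34, edgeR adjusted p = 5.67e-07). Cldn23, a less studied claudin of epithelia, had 1.58 and 0.965 CPM in ectoderm (E9.5), 10.4 and 11.2 (E10.5), 6.48 and 11.2 (E11.5) and then 15.4 and 12.1 (E12.5). Mesoderm held 0.0955 and 0.0615 CPM (E9.5), 0.103 and 0.0682 (E10.5), 0.266 and 0.200 (E11.5) and then 0.131 and 0 (E12.5). It was separate between layers as well, with a difference of 5.81 (SE 0.31, edgeR adjusted p = 3e-08).

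Cldn12 was the claudin of both layers. It is a broadly expressed claudin that lacks the usual binding motif for the scaffold proteins of the junction. Its libraries held 81.3 and 83.7 CPM in ectoderm (E9.5), 68.2 and 73.4 (E10.5), 45.7 and 61.5 (E11.5) and then 56.6 and 63.4 (E12.5). Mesoderm held 66.0 and 68.9 CPM (E9.5), 37.9 and 48.8 (E10.5), 33.0 and 43.7 (E11.5) and then 28.0 and 34.8 (E12.5). The layers overlapped across stages, but within each stage both ectoderm libraries were above both mesoderm libraries. Averaged over stages it was higher in ectoderm by 0.60 (SE 0.10, edgeR adjusted p = 0.000429). At single stages it was called at E10.5, 0.71 (SE 0.20, edgeR adjusted p = 0.0231), and at E12.5, 0.93 (SE 0.20, edgeR adjusted p = 0.00503). Blocking on embryo batch, it was also called at E9.5 (0.29, edgeR adjusted p = 0.0391) and at E11.5 (0.48, edgeR adjusted p = 0.00371), where the kit block gave the call as well (0.48, edgeR adjusted p = 0.00641). The embryo block called 42.4 percent of all genes at E9.5 and 40 percent at E11.5, and the kit block 37.7 percent at E11.5. Without a block these shares were 21.4 percent at E9.5 and 20.6 percent at E11.5.

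Cldn5, Cldn10 and Cldn13 ran the other way. Cldn5, the main claudin of endothelial tight junctions, had 1.48 and 0.483 CPM in ectoderm (E9.5), 0.177 and 0.134 (E10.5), 0.298 and 0.0662 (E11.5) and then 0.320 and 0 (E12.5). Mesoderm held 31.8 and 17.7 CPM (E9.5), 16.4 and 9.75 (E10.5), 23.9 and 11.9 (E11.5) and then 17.96 and 11.9 (E12.5). Every mesoderm library was above every ectoderm library, and the difference was -5.96 (SE 0.42, edgeR adjusted p = 3.76e-07). In ectoderm Cldn5 was at 0 to 4.65 percent of the same batch's mesoderm, where the median endothelial marker was at 0.424 to 4.11 percent. Cldn13, a rodent claudin reported in red blood cell precursors, was lower in ectoderm, with a difference of -4.55 (SE 0.64, edgeR adjusted p = 0.000246), with 0 to 0.134 CPM in the ectoderm libraries and 0.218 to 0.887 CPM in those of mesoderm. At E11.5 and E12.5 it had no count in ectoderm, and ectoderm was at least 10.6-fold and at least 3.76-fold lower. Erythroid markers summed to 12.7 to 753 CPM across ectoderm libraries and 2387 to 5261 CPM across mesoderm libraries, and their part in the Cldn13 values was not tested.

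Cldn10 was mesodermal too, with a wide spread between replicates. This gene encodes forms that start from different first exons and make pores for anions or for cations. It had 0.105 and 0.362 CPM in ectoderm (E9.5), 0 and 0.267 (E10.5), 2.09 and 0.0662 (E11.5) and then 0.412 and 0.396 (E12.5). Mesoderm held 7.69 and 3.38 CPM (E9.5), 1.55 and 1.36 (E10.5), 4.43 and 1.93 (E11.5) and then 3.49 and 6.22 (E12.5). The layers overlapped through 1 library, ectoderm E11.5 replicate 1, which held 47.1 percent of the Cldn10 level of its own batch's mesoderm and 44.1 percent of the median mesenchyme marker level. The averaged difference was -3.18 (SE 0.56, edgeR adjusted p = 0.000632). At E11.5 the difference was -1.51 (SE 0.96, edgeR adjusted p = 0.353), and it was -5.50 (edgeR adjusted p = 0.0131) without that library. Blocking on embryo batch, Cldn10 was also called lower at E10.5 (-3.26, edgeR adjusted p = 0.0198) and at E11.5 (-1.78, edgeR adjusted p = 0.0475). Blocking on the kit, Cldn10 (-3.15, edgeR adjusted p = 0.0466) and Cldn13 (-2.72, edgeR adjusted p = 0.0434) were called lower at E10.5. Of all genes at E10.5, 48.6 percent were called under the embryo block and 46.5 percent under the kit block, against 26.4 percent without a block. At E11.5 the embryo block called 40 percent, against 20.6 percent. Some fits without a block also called Cldn10 lower at E10.5. These were DESeq2 (-3.37, DESeq2 adjusted p = 0.0293), beside 4620 of 15501 genes, and the fit with all genes kept (-3.34, edgeR adjusted p = 4.72e-05), beside 4155 of 28342. Without ectoderm E11.5 replicate 1 the E10.5 difference was -3.31.

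The deposited exon-bin counts show which Cldn10 start was in use. The first exon of the upstream start (chromosome 14, 118787908 to 118788370, GENCODE M21 on GRCm38, plus strand) had 0 counts in all 16 libraries. The first exon of the downstream start (118854732 to 118855209) had 202 counts, 29 in ectoderm and 173 in mesoderm, and 21 of the 29 came from ectoderm E11.5 replicate 1. None of the 202 first-exon counts fell on the upstream exon, which allows it a share of up to 1.49 percent (3 counts, covering counting error only). The 2 RefSeq promoter windows (250 bases before to 50 after the start, GRCm38.p6, plus strand, chr14:118787621-118787920 and chr14:118854700-118854999) are shown because the starts differ in use. The RefSeq downstream start lies inside the GENCODE first exon that begins at 118854732, so most of that window overlaps the counted exon. Capitals mark the letters GGGCGG, a GC box, read on both strands and found in 35.7 percent of 32851 promoter windows.
Cldn10 upstream start: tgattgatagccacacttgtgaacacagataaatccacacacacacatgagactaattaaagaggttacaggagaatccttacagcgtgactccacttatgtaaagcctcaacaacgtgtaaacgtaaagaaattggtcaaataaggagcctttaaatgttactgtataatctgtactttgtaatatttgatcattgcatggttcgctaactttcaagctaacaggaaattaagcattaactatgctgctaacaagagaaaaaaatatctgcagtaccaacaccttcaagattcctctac
Cldn10 downstream start: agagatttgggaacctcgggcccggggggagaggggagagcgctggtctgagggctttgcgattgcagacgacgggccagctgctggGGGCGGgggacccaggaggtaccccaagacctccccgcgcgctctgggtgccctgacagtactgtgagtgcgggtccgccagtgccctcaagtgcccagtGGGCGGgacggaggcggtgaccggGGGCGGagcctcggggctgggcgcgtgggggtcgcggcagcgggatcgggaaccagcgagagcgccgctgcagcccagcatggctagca
The upstream window had 36.0 percent G and C, 4 CG pairs and no GC box. The downstream window had 72.0 percent G and C, 27 CG pairs and 3 GC boxes, and these boxes lie within the counted first exon and not before it.

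Cldn11 and Cldn15 passed the filter at low levels. Cldn11, a claudin of myelin and testis, ranged over 0.132 to 0.905 CPM in ectoderm and over 0.0682 to 0.793 CPM in mesoderm, with a layer difference of 0.17 (SE 0.36, edgeR adjusted p = 0.749). Cldn15, a sodium pore of the gut, ranged over 0.137 to 0.668 CPM in ectoderm and over 0.0610 to 0.861 CPM in mesoderm, with a difference of 0.42 (SE 0.41, edgeR adjusted p = 0.454). Both sets of libraries overlapped and neither difference passed the test.

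**Figure D2:**
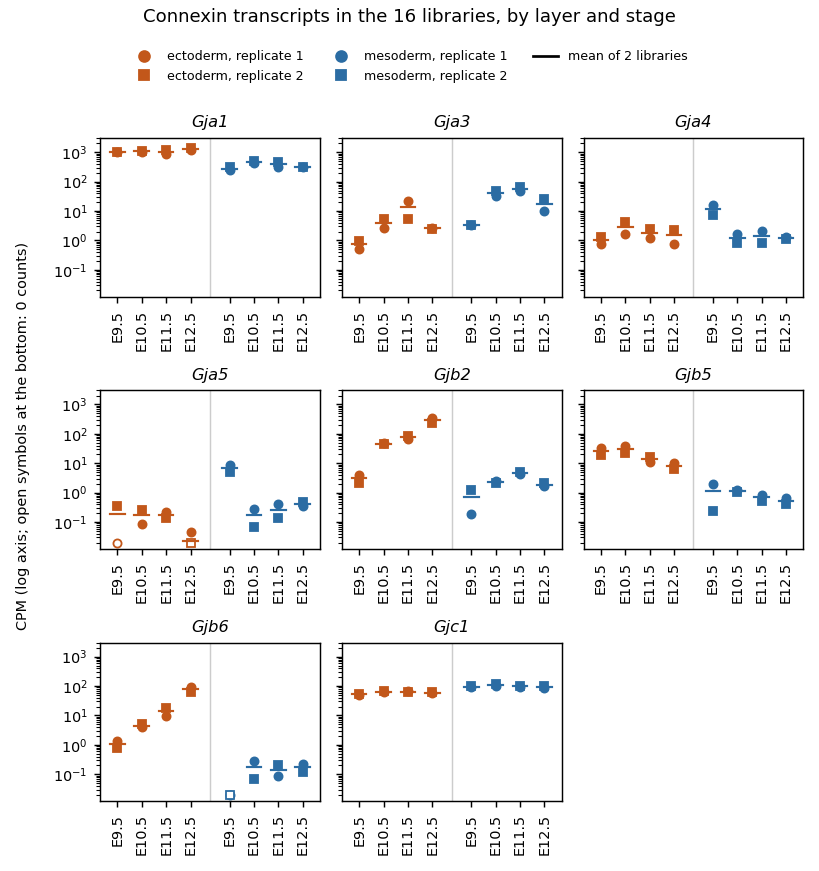
CPM of 8 connexins with a mean of at least 5 CPM in a group, on a log axis, with each library as a point (circles replicate 1, squares replicate 2), ectoderm on the left and mesoderm on the right of each panel, and a line at the mean of 2 libraries. Gjb2 and Gjb6 climbed stage by stage in ectoderm, and Gja4 and Gja5 stood highest in mesoderm at E9.5.

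Gja1 and Gjc1 were the connexins of both layers. Gja1, whose human gene is mutated in a syndrome with fused digits, had 1015 and 1036 CPM in ectoderm (E9.5), 1036 and 1141 (E10.5), 885 and 1204 (E11.5) and then 1239 and 1382 (E12.5). Mesoderm held 247 and 304 CPM (E9.5), 444 and 504 (E10.5), 311 and 474 (E11.5) and then 320.2 and 322 (E12.5). The lowest ectoderm library was above the highest mesoderm library, and the difference was 1.63 (SE 0.11, edgeR adjusted p = 2.67e-07). Gjc1, a connexin of heart, vessel wall and many embryonic tissues, had 49.1 and 55.0 CPM in ectoderm (E9.5), 62.4 and 67.3 (E10.5), 68.8 and 60.6 (E11.5) and then 55.9 and 62.2 (E12.5). Mesoderm held 90.5 and 101 CPM (E9.5), 102 and 119 (E10.5), 92.8 and 104 (E11.5) and then 85.5 and 102 (E12.5). Here every mesoderm library was above every ectoderm library, with a smaller difference of -0.73 (SE 0.08, edgeR adjusted p = 1.19e-05). In ectoderm Gjc1 stayed at 54.2 to 74.1 percent of the same batch's mesoderm, with the highest share in E11.5 replicate 1.

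Gjb2, Gjb5 and Gjb6, of the beta class, were ectodermal. Gjb5, a connexin of mouse skin and trophoblast, had 33.9 and 18.9 CPM in ectoderm (E9.5), 38.0 and 22.9 (E10.5), 11.3 and 16.1 (E11.5) and then 10.1 and 6.26 (E12.5). Mesoderm held 2.01 and 0.246 CPM (E9.5), 1.21 and 1.02 (E10.5), 0.843 and 0.533 (E11.5) and then 0.654 and 0.427 (E12.5). Its lowest ectoderm library was above its highest mesoderm library, and the difference was 4.35 (SE 0.35, edgeR adjusted p = 1.03e-06). Gjb2, the gene most often mutated in inherited human deafness and also in skin disorders, had 4.11 and 2.17 CPM in ectoderm (E9.5), 47.3 and 46.3 (E10.5), 66.2 and 87.6 (E11.5) and then 339 and 238 (E12.5). Mesoderm held 0.191 and 1.23 CPM (E9.5), 2.52 and 2.18 (E10.5), 4.21 and 5.13 (E11.5) and then 1.66 and 2.07 (E12.5). Both E9.5 ectoderm libraries lay within the range of the later mesoderm libraries, so the layers overlapped across stages but not within any stage. The averaged difference was 4.45 (SE 0.25, edgeR adjusted p = 5.59e-08). Gjb6, a partner of Gjb2 in the inner ear and epidermis, had 1.37 and 0.784 CPM in ectoderm (E9.5), 4.08 and 5.01 (E10.5), 9.88 and 17.7 (E11.5) and then 95.7 and 64.8 (E12.5). Mesoderm held 0 and 0 CPM (E9.5), 0.276 and 0.0682 (E10.5), 0.0887 and 0.200 (E11.5) and then 0.218 and 0.122 (E12.5). The layers were separate at every stage, E9.5 mesoderm had no count, and E9.5 ectoderm stood at least 12.4-fold higher. Averaged over stages the difference was 6.77 (SE 0.34, edgeR adjusted p = 5.17e-08).

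Gja3 was the connexin with a mesodermal peak. It is best known from the lens, where its human gene is mutated in cataract. Its libraries held 0.527 and 0.965 CPM in ectoderm (E9.5), 2.57 and 5.21 (E10.5), 21.5 and 5.43 (E11.5) and then 2.75 and 2.51 (E12.5). Mesoderm held 3.44 and 3.26 CPM (E9.5), 33.1 and 49.7 (E10.5), 47.9 and 65.7 (E11.5) and then 10.3 and 25.9 (E12.5). Mesoderm was above ectoderm within every stage, and the averaged difference was -2.58 (SE 0.32, edgeR adjusted p = 4.21e-05). Both mesoderm libraries of E10.5 and of E11.5 were above all other mesoderm libraries. Ectoderm E11.5 replicate 1, at 44.9 percent of its own batch's mesoderm, stood above the other 7 ectoderm libraries, which were at 7.77 to 29.6 percent. The part of mesenchyme in that value was not tested.

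Gja4 and Gja5, connexins of arterial endothelium, stood highest in mesoderm at E9.5. Gja4 had 0.739 and 1.27 CPM in ectoderm (E9.5), 1.60 and 4.21 (E10.5), 1.19 and 2.38 (E11.5) and then 0.778 and 2.31 (E12.5). Mesoderm held 16.5 and 7.44 CPM (E9.5), 1.66 and 0.819 (E10.5), 2.04 and 0.799 (E11.5) and then 1.35 and 1.10 (E12.5). At E9.5 the layers were separate, with a difference of -3.54 (SE 0.76, edgeR adjusted p = 0.00573), and from E10.5 on they overlapped with no call. Without ectoderm E9.5 replicate 1 the E9.5 difference was -3.24 (edgeR adjusted p = 0.061). Averaged over stages it was -0.43 (SE 0.36, edgeR adjusted p = 0.359). Gja5 had 0 and 0.362 CPM in ectoderm (E9.5), 0.0887 and 0.267 (E10.5), 0.213 and 0.132 (E11.5) and then 0.0457 and 0 (E12.5). Mesoderm held 8.55 and 5.04 CPM (E9.5), 0.276 and 0.0682 (E10.5), 0.399 and 0.133 (E11.5) and then 0.349 and 0.488 (E12.5). The 2 E9.5 mesoderm libraries stood above the other 14 libraries, and the E9.5 difference was -4.96 (SE 0.93, edgeR adjusted p = 0.00263). Its averaged difference was -2.32 (SE 0.53, edgeR adjusted p = 0.00361), and was -1.97 (edgeR adjusted p = 0.0565) without mesoderm E10.5 replicate 1. Gja5 shares 165 exonic bases with Gpr89 on the other strand, with the same limit as for Cldn3. Endothelial markers in ectoderm were at 0.424 to 3.53 percent of mesoderm from E10.5 to E12.5, while Gja4 in ectoderm was at 57.6 to 514 percent of mesoderm at those stages. Gja5 was at 32.1 to 391 percent at E10.5 and E11.5 and at 13.1 and 0 percent at E12.5, on few counts in both layers.

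**Figure D3:**
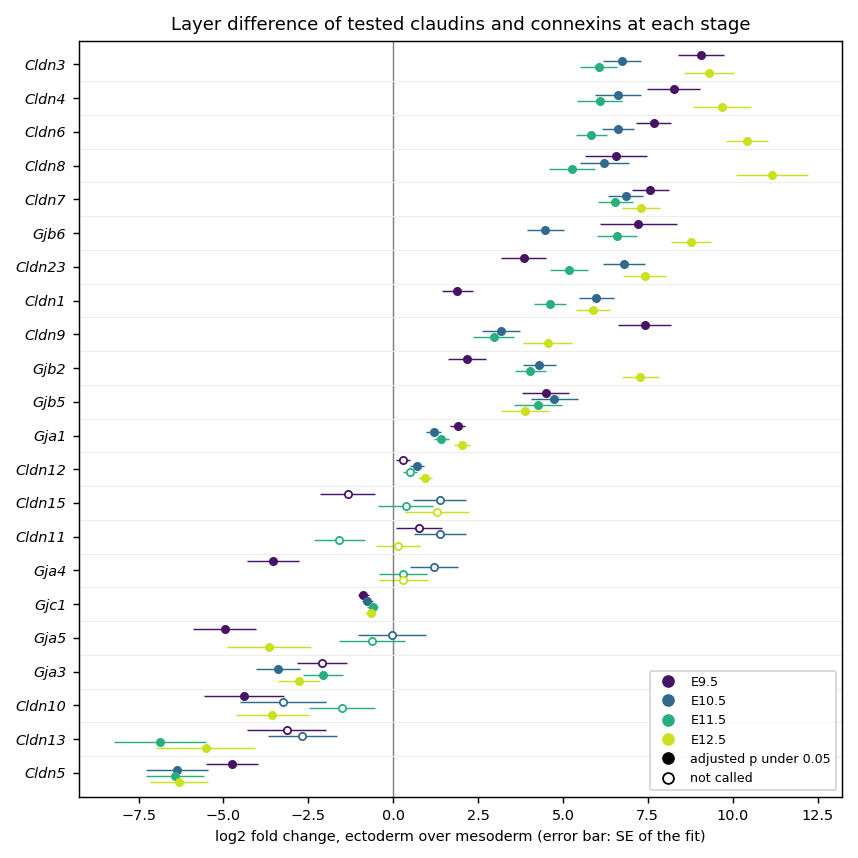
Log2 fold change of ectoderm over mesoderm (horizontal axis) for the tested members named in the text, ordered by their average, with 1 point per stage, an error bar of 1 SE of the fit, and filled points for an adjusted p under 0.05. Cldn3, Cldn4 and Cldn6 lie far to the right at all 4 stages, and Gja4 and Gja5 lie far to the left at E9.5 and near or right of 0 at E10.5.

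The layer difference was called at every stage for most of these members. At E9.5, 13 members were higher and 5 lower in ectoderm, beside 21.4 percent of all genes called (13.1 percent higher, 8.29 percent lower). E10.5 had 14 higher and 3 lower, beside 26.4 percent of all genes (16.2 percent higher, 10.2 percent lower). E11.5 had 13 higher and 4 lower, beside 20.6 percent (12.9 percent higher, 7.69 percent lower). E12.5 had 14 higher and 6 lower, beside 26.4 percent (13.3 percent higher, 13.2 percent lower). Among the 13 members higher at all 4 stages were Cldn1, Cldn3, Cldn4, Cldn6, Cldn7, Cldn8, Cldn9, Cldn23, Gja1, Gjb2, Gjb5 and Gjb6, and Cldn12 was the added one at E10.5 and E12.5. Cldn5 and Gjc1 were lower at all 4 stages. Cldn10 was lower at E9.5 and E12.5, Cldn13 at E11.5 and E12.5, Gja3 from E10.5 on, Gja4 at E9.5, and Gja5 at E9.5 and E12.5. For Gja3 the layers were separate at E9.5 too. It was called lower there by DESeq2 (-2.17, DESeq2 adjusted p = 0.00957), beside 3954 of 15501 genes. With all genes kept it was called as well (-2.10, edgeR adjusted p = 3.13e-06), beside 3404 of 28342 genes. Without ectoderm E11.5 replicate 1 or 2 its E9.5 difference was -2.15 and -2.09.

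Some of these single-stage calls rested on 1 library. At E9.5 Cldn1 was no longer called without replicate 1 of ectoderm (1.80, edgeR adjusted p = 0.0505) or of mesoderm (1.62, edgeR adjusted p = 0.096), and likewise Gjb2 (1.68, edgeR adjusted p = 0.126, without ectoderm, and 1.31, edgeR adjusted p = 0.0806, without mesoderm). Cldn10 at E9.5 lost its call without either ectoderm library or mesoderm replicate 1 (edgeR adjusted p 0.0873 to 0.136). Cldn12 at E10.5 was not called without ectoderm replicate 1 or 2 or mesoderm replicate 1 (edgeR adjusted p 0.0644 to 0.187), with library totals (0.0802) or with all genes kept (0.1). Gja3 at E11.5 was not called without ectoderm replicate 2 or either mesoderm library (edgeR adjusted p 0.0554 to 0.159), nor Gjc1 at E11.5 without replicate 2 of either layer (edgeR adjusted p 0.109 to 0.147). At E12.5 the calls of Cldn10, Cldn13, Gja3 and Gjc1 ended without mesoderm replicate 2 (edgeR adjusted p 0.055 to 0.108). Those of Cldn10, Cldn13 and Gjc1 also ended without ectoderm replicate 1 (0.0687 to 0.142), and those of Cldn10, Cldn13 and Gja3 without ectoderm replicate 2 (0.0504 to 0.134). Cldn12 at E12.5 ended without mesoderm replicate 1 (0.78, edgeR adjusted p = 0.0555). Gja5 at E12.5, at 1 count in ectoderm and 16 in mesoderm, was called at an edgeR adjusted p of 0.0496 and lost the call without any 1 of 14 libraries (0.0509 to 0.2).

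In ectoderm from E9.5 to E12.5, Gjb2, Gjb6, Cldn1 and Cldn23 climbed, while Cldn3, Cldn4, Cldn6 and Cldn7 had no call. Of the 23 tested, 5 were higher and 1 was lower at E12.5 than at E9.5, beside 16.1 percent of all genes called (9.1 percent higher, 7 percent lower). Their median log2 change was -0.025, against 0.0031 for all genes tested. Gjb2, at 339 and 237.5 CPM at E12.5 against 4.11 and 2.17 CPM at E9.5, changed by 6.56 (SE 0.53, edgeR adjusted p = 2.69e-05). Gjb6 changed by 6.26 (SE 0.51, edgeR adjusted p = 4.04e-05), Cldn1 by 3.50 (SE 0.44, edgeR adjusted p = 0.000353) and Cldn23 by 3.46 (SE 0.48, edgeR adjusted p = 0.000699). In these 4 genes both E12.5 libraries were above all other ectoderm libraries. Cldn8 was higher by 2.30 (SE 0.54, edgeR adjusted p = 0.016) and Cldn9 was lower, with a change of -2.07 (SE 0.51, edgeR adjusted p = 0.0184). Cldn8 was no longer called without ectoderm E9.5 replicate 1, E9.5 replicate 2 or E12.5 replicate 2 (edgeR adjusted p 0.0697 to 0.125), and Cldn9 was not called without any 1 of the 4 ectoderm libraries compared (0.0529 to 0.128).

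The order of the climb can be read from the stage means. Gjb2 had 3.14 ± 1.37, 46.8 ± 0.672, 76.9 ± 15.1 and 288 ± 71.5 CPM in ectoderm from E9.5 to E12.5 (mean ± SD, n = 2). Gjb6 had 1.08 ± 0.415, 4.54 ± 0.655, 13.8 ± 5.55 and 80.3 ± 21.8 CPM, Cldn1 6.64 ± 0.604, 33.8 ± 2.30, 37.4 ± 6.48 and 75.0 ± 10.2 CPM and Cldn23 1.27 ± 0.436, 10.8 ± 0.592, 8.86 ± 3.38 and 13.8 ± 2.32 CPM over the same stages. In all 4 genes both E10.5 libraries were above both E9.5 libraries. Between E10.5 and E11.5 the libraries of Cldn23 overlapped, those of Cldn1 overlapped, and those of Gjb2 and Gjb6 did not. A difference among the 4 ectoderm stages was called for 6 members, beside 12.3 percent of all genes. They were Cldn1, Cldn9, Cldn23, Gja3, Gjb2 and Gjb6 (edgeR adjusted p 9.56e-05 to 0.0461). Gja3 (edgeR adjusted p = 0.0092) was not called without ectoderm E11.5 replicate 1 (0.0514), Cldn23 (0.00388) not without ectoderm E9.5 replicate 2 (0.0678), and Cldn9 (0.0461) lost its call without any 1 of 13 libraries (0.0569 to 0.207).

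The choice of RNA kit moved with the replicate number, and the stage results depended on how it was treated. With the kit as a block, 5 members were higher and 7 lower in ectoderm at E12.5, beside 35.4 percent of all genes called in that fit (17.8 percent higher, 17.5 percent lower), against 16.1 percent without the block. Among the 6 added were Cldn5, Cldn6, Cldn7, Cldn12 and Gjb5, with changes of -2.35 to -0.46 (edgeR adjusted p 0.00539 to 0.0348). Of these, Cldn6, Cldn7 and Gjb5 belong to the ectodermal set, and each was a non-call in the main fit (-1.68 to -0.74, edgeR adjusted p 0.0813 to 0.24). Some other fits without the block gave calls. With all genes kept, Cldn5 (-2.26), Cldn6 (-0.72) and Gjb5 (-1.66) were called (edgeR adjusted p 0.000142 to 0.0329). DESeq2 called Cldn5 (-2.37, DESeq2 adjusted p = 0.0385) and Gjb5 (-1.67, DESeq2 adjusted p = 0.0376). Limma on log2(FPKM + 1) called Gjb5 (-1.42, limma adjusted p = 0.0122). Cldn7 was called in none of these. Under the kit block, a difference among the ectoderm stages was called for 11 members in place of 6, with Cldn5, Cldn7, Cldn8, Cldn12 and Gjb5 added (edgeR adjusted p 0.00216 to 0.0279). The share of all genes was 32.9 percent in place of 12.3 percent. Without the block, DESeq2 called Cldn8 (DESeq2 adjusted p = 0.0142) and Cldn5 (0.025) in that test, beside 3101 of 15501 genes. Limma called Cldn8 at pseudocounts of 0.1 and 1 (limma adjusted p = 0.0301 and 0.0208), and Gjb5 at 1 (0.0174).

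The promoters of the climbing genes are shown so that their sequence can be set beside their course. The RefSeq windows (250 bases before to 50 after the start, GRCm38.p6, all on the minus strand) are chr16:26371790-26372089 for Cldn1, chr14:57104653-57104952 for Gjb2 and chr14:57133562-57133861 for Gjb6, and the table used here has none for Cldn23. Capitals mark matches, on both strands, to the GC box GGGCGG or to GCCNNNGGC, a motif of AP-2 factors. AACCGG, a core of grainyhead-like factor sites, and the TATA box TATAAA were searched as well.
Cldn1: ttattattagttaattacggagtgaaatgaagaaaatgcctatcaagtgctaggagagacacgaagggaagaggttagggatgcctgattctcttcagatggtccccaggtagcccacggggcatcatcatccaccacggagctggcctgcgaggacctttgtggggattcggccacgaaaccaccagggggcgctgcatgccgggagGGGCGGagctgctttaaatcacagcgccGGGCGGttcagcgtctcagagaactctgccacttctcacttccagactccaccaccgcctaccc
Gjb2: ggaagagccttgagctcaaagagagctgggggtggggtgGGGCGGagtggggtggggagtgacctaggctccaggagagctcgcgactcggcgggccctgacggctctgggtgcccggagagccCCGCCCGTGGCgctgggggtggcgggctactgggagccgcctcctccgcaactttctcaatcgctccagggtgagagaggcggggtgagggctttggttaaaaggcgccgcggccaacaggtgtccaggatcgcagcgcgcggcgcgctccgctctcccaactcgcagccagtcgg
Gjb6: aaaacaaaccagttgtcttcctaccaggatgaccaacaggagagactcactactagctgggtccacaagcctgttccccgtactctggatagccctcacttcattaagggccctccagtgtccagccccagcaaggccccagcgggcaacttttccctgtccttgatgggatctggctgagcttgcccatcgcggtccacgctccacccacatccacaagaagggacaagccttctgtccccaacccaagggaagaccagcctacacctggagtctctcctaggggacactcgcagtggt
Cldn1 had 2 GC boxes. Gjb2 had 2 GC boxes, 1 of which overlaps its AP-2 match, and 70.0 percent G and C. Gjb6 had no match to any of the 4 motifs and 57.3 percent G and C. Of all 32851 windows, 35.7 percent held a GC box, 16.6 percent an AP-2 match, 6.83 percent the grainyhead-like core and 13.6 percent a TATA box. Among the 43 windows of 31 members, 19 held a GC box, 9 an AP-2 match, 3 the grainyhead-like core and 5 a TATA box.

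In mesoderm the vessel connexins Gja4 and Gja5 fell between E9.5 and E12.5, as did Cldn12. At E12.5, 2 members were higher and 5 lower than at E9.5, a share of the 23 close to the 29.6 percent of all genes called (17 percent higher, 12.6 percent lower). The median log2 change of the 23 was -0.49, against 0.018 for all genes tested. Gja5 changed by -4.01 (SE 0.85, edgeR adjusted p = 0.0047) and Gja4 by -3.28 (SE 0.73, edgeR adjusted p = 0.00628). Cldn6 changed by -3.48 (SE 0.68, edgeR adjusted p = 0.00303), within the low levels that it had in mesoderm. Cldn15 changed by -2.85 (SE 0.87, edgeR adjusted p = 0.0294) and Cldn12 by -1.10 (SE 0.20, edgeR adjusted p = 0.00222). Cldn15 had 3 counts at E12.5 and 21 at E9.5, a ratio of 7.40 at E9.5 over E12.5 with a 95 percent counting interval of 2.21 to 38.8. It was not called without mesoderm E9.5 replicate 2, E12.5 replicate 1 or E12.5 replicate 2 (edgeR adjusted p 0.124 to 0.181). The 10 endothelial markers summed to 696.6 and 538.7 CPM in mesoderm at E12.5, against 696.5 and 539.9 CPM at E9.5, but single markers went opposite ways. Kdr fell from 197.2 and 155.3 to 96.62 and 83.98 CPM, and Flt1 and Esam were also lower in both replicates. Cdh5 rose from 136.3 and 99.86 to 197.3 and 154.7 CPM, and Tek, Tie1, Pecam1, Emcn and Robo4 were also higher in both. Cd93 was higher in replicate 1 and lower in replicate 2. The part of endothelial cells in the fall of Gja4 and Gja5 was not tested.

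Gja3 and Gjb6 were the members called higher in E12.5 mesoderm. Gja3 was higher at E12.5 than at E9.5 by 2.42 (SE 0.62, edgeR adjusted p = 0.0126), although its level was higher still in between. It was not called without mesoderm E9.5 replicate 1, E9.5 replicate 2 or E12.5 replicate 2 (edgeR adjusted p 0.0722 to 0.101). Gjb6 had 7 counts at E12.5 and none at E9.5, at least 2.21-fold higher, with an edgeR adjusted p of 0.0347. This call ended with the kit as a block (edgeR adjusted p = 0.0577) and without any 1 of the 4 mesoderm libraries compared (0.0522 to 0.152). The kit block added Cldn5 (-0.69, edgeR adjusted p = 0.0357) and Gjb2 (1.48, edgeR adjusted p = 0.0454), beside 51.5 percent of all genes called in that fit, against 29.6 percent without the block. A difference among the 4 mesoderm stages was called for 9 members, beside 23.5 percent of all genes. Among them were Cldn4, Cldn6, Cldn9, Cldn12, Gja3, Gja4, Gja5 and Gjb2. The kit block gave 13, beside 51.4 percent of all genes, with Cldn3, Cldn5, Cldn8 and Gja1 added (edgeR adjusted p 0.00148 to 0.0457). DESeq2 without a block also called Cldn3, Cldn8, Gja1 and Cldn1 (DESeq2 adjusted p 0.0113 to 0.0216), beside 4994 of 15501 genes. Cldn4, Cldn6, Cldn9 and Gjb2, which are ectodermal, stood higher in mesoderm at E10.5 and E11.5 than at E9.5 and E12.5 by their means, as the summed surface epithelium markers did. In those E10.5 and E11.5 libraries the median marker was at 0.741 to 2.22 percent of the same batch's ectoderm. Cldn4 was at 0.79 to 2.07 percent and Cldn6 at 0.909 to 2.77 percent, but Cldn9 was at 8.16 to 22.6 percent and Gjb2 at 4.71 to 6.37 percent. The part of epithelial cells was not tested. Gja4 was not called without mesoderm E9.5 replicate 1 (edgeR adjusted p = 0.0875), nor Gjb2 without E11.5 replicate 2 (0.0525), nor Cldn12 without E9.5 replicate 2 (0.0585). Cldn4 and Cldn9 each lost the call without any 1 of 3 libraries (0.0577 to 0.0908), which were mesoderm E10.5 replicate 1, E11.5 replicate 1 and E12.5 replicate 2 for Cldn4, and mesoderm E9.5 replicate 2, E10.5 replicate 1 and E12.5 replicate 1 for Cldn9.

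The E9.5 to E12.5 change differed between the layers for 3 members, all in the positive direction, beside 8.27 percent of all genes (3.12 percent positive, 5.15 percent negative). The median difference of the 23, ectoderm change minus mesoderm change, was 0.84, against 0.0003 for all genes tested. Gjb2 had a difference of 5.10 (SE 0.78, edgeR adjusted p = 0.00252), Cldn1 of 3.99 (SE 0.63, edgeR adjusted p = 0.00305) and Gja4 of 3.84 (SE 1.03, edgeR adjusted p = 0.043). For Gjb2 and Cldn1 the ectoderm change was called and the mesoderm change was not. For Gja4 it was the mesoderm change that was called. Gjb6 had a difference of 1.55 (SE 3.43, edgeR adjusted p = 0.926), which rests on a fold against E9.5 mesoderm without a count. Limma called Gjb6 positive, by 4.94 on log2(FPKM + 0.1) (limma adjusted p = 0.00155) and by 4.32 on log2(FPKM + 1) (limma adjusted p = 4.08e-05). The main fit thus does not show that Gjb6 changed alike in both layers. Without mesoderm E9.5 replicate 2, which had 1.23 CPM of Gjb2 against 0.191 CPM in replicate 1, the Gjb2 difference was 3.33 (edgeR adjusted p = 0.0627). That library also held all 13 counts of Cldn2, a cation pore of leaky epithelia, and 6 of the 8 counts of Gjb1, a connexin of liver and nerve sheath. The Gja4 call ended with library totals in place of TMM scaling (3.73, edgeR adjusted p = 0.0501) and in 8 of the fits without 1 library (0.0525 to 0.167). These were the fits without ectoderm E9.5 replicate 1 or 2, ectoderm E12.5 replicate 2, mesoderm E9.5 replicate 1, or any mesoderm library of E10.5 or E12.5. With the kit or the embryo batch as a block, Cldn6 (2.75 in both, edgeR adjusted p = 0.0315 and 0.0469) and Cldn12 (0.65 in both, edgeR adjusted p = 0.0141 and 0.00835) were called too. Of all genes, 23.1 percent were called under the kit block (10.8 percent positive, 12.3 percent negative) and 25 percent under the embryo block (11.7 percent positive, 13.2 percent negative).

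**Figure D4:**
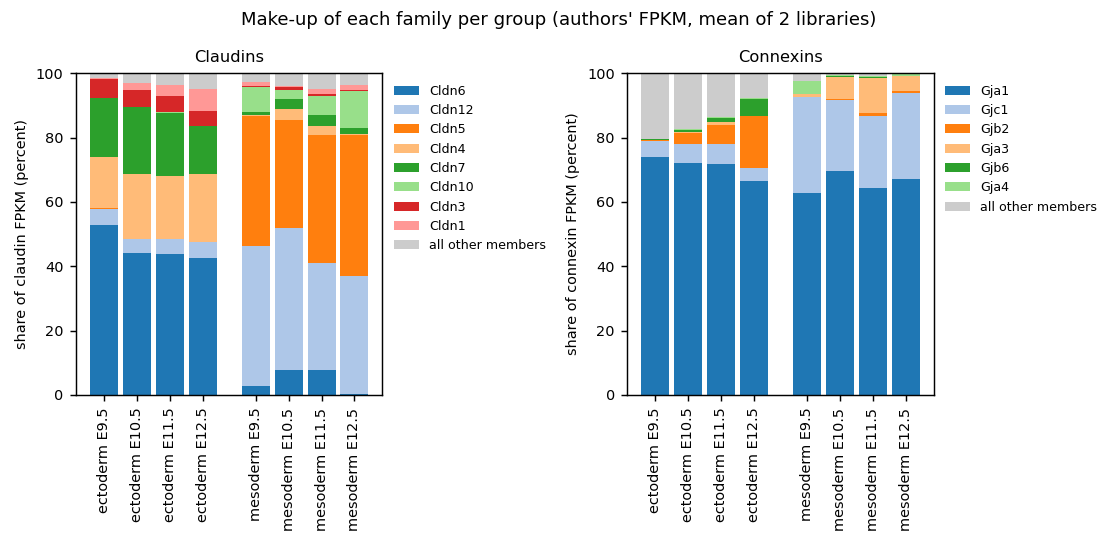
Share of the summed FPKM (fragments scaled by transcript length and library size) of the claudins and of the connexins taken by members named in the text, in percent, with all other members together in grey and 1 bar per group from the mean of 2 libraries. Cldn6 is the largest claudin block in each ectoderm bar and Gja1 the largest connexin block in all 8 bars, and Gjb2 and Gjb6 widen in the E12.5 ectoderm bar.

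On the authors' FPKM, which allow for transcript length, the claudin make-up of the layers had little in common. The claudins summed to 223 to 419 FPKM in ectoderm libraries and 20.2 to 36.2 FPKM in mesoderm libraries. Cldn6 led every ectoderm library with 42.3 to 53.3 percent of that sum. Cldn7 and Cldn4 came next, and their order was within their SD at all 4 stages. At E12.5 ectoderm had 117 ± 14.8 FPKM of Cldn6, 58.4 ± 17.6 of Cldn4, 41.5 ± 2.39 of Cldn7 and 19.0 ± 1.75 of Cldn1 (mean ± SD, n = 2). In mesoderm Cldn5 led all 4 libraries of replicate 1 and Cldn12 led all 4 of replicate 2, with 39.5 to 53.5 percent of the claudin sum. At E12.5 mesoderm had 9.31 ± 1.89 FPKM of Cldn5, 7.80 ± 1.96 of Cldn12 and 2.48 ± 1.25 of Cldn10.

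The connexins summed to 391 to 625 FPKM in ectoderm and 119 to 232 FPKM in mesoderm, and Gja1 took 60.1 to 74.6 percent in each of the 16 libraries. Behind Gja1 the ectoderm order changed with stage. At E9.5 ectoderm had 21.3 ± 1.947 FPKM of Gjc1, 12.3 ± 4.75 of Gjb5 and 1.05 ± 0.467 of Gjb2 (mean ± SD, n = 2). At E12.5 it had 98.9 ± 20.6 of Gjb2, 31.7 ± 7.18 of Gjb6 and 25.1 ± 2.57 of Gjc1, and the last pair overlapped within their SD. In mesoderm Gjc1 came next after Gja1 at every stage, with 38.6 ± 4.91 FPKM at E9.5 and 43.3 ± 9.10 at E12.5. Gja3 followed from E10.5 on, with 21.9 ± 2.90 FPKM at E11.5.

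Several members sit side by side in the genome, and neighbours did not always share a layer (coordinates from GENCODE M21 on GRCm38). Within chr14:57034460-57133611, Gja3 was lower in ectoderm while Gjb2 and Gjb6 were higher. Within chr5:134914249-134987472, Cldn13 was lower while Cldn4 and Cldn3 were higher. Cldn6 and Cldn9 at chr17:23679249-23684026, on opposite strands, were both higher. From E9.5 to E12.5 in ectoderm Cldn9 fell, while the fall of Cldn6 was called only with the kit block or with all genes kept. Cldn1 and Cldn8 on chromosome 16 each have a neighbour, Cldn16 and Cldn17, that did not pass the filter.

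Other genes of tight and gap junctions were listed as well, 33 in all, of which 32 were tested. In the layer average 18 were higher and 4 lower in ectoderm, beside 24.3 percent of all genes higher and 21.4 percent lower. Their median log2 difference was 0.95, against 0.0098 for all genes tested. Crb3, a polarity protein of the apical membrane, had 8.54 and 7.30 CPM in ectoderm (E9.5), 11.9 and 6.27 (E10.5), 7.50 and 7.81 (E11.5) and then 10.4 and 5.80 (E12.5). Mesoderm held 0.143 and 0.184 CPM (E9.5), 0.138 and 0 (E10.5), 0.177 and 0 (E11.5) and then 0 and 0 (E12.5). Its layers did not overlap, with a difference of 7.11 (SE 0.45, edgeR adjusted p = 3.6e-07). The junctional adhesion molecules Jam2 and Jam3 had the largest called differences in the other direction. Jam2 had 1.05 and 1.27 CPM in ectoderm (E9.5), 0.798 and 1.14 (E10.5), 1.06 and 0.463 (E11.5) and then 0.0915 and 0.330 (E12.5). Mesoderm held 0.955 and 0.799 CPM (E9.5), 1.21 and 1.30 (E10.5), 3.06 and 1.60 (E11.5) and then 2.266 and 1.83 (E12.5). Its layers overlapped and the difference was -1.21 (SE 0.29, edgeR adjusted p = 0.00449). Jam3 had 47.6 and 44.0 CPM in ectoderm (E9.5), 25.4 and 28.1 (E10.5), 35.9 and 24.8 (E11.5) and then 19.0 and 19.7 (E12.5). Mesoderm held 66.0 and 67.6 CPM (E9.5), 69.9 and 71.3 (E10.5), 64.0 and 64.7 (E11.5) and then 51.8 and 62.6 (E12.5). Every mesoderm library was above every ectoderm library, and the difference was -1.15 (SE 0.09, edgeR adjusted p = 8.28e-07). From E9.5 to E12.5, 6 of the 32 were higher and 7 lower in ectoderm, beside 16.1 percent of all genes called. In mesoderm 5 were higher and 1 lower, beside 29.6 percent of all genes called. The difference between the layers in that change was called for 2 in the positive and 7 in the negative direction, beside 3.12 and 5.15 percent of all genes.

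The remaining 20 members did not pass the filter, and 5 of these, Cldn18, Cldn22, Cldn24, Gjc3 and Gjd2, had no count in any library, where 3 counts correspond to 0.0687 to 0.115 CPM in a group of 2 libraries. Gja6, Gja10, Gjd3, Gje1 and Cldn20 had scattered counts, with no library above 0.369 CPM. Cldn14, Cldn16, Cldn17, Cldn19 and Gjd4 stayed at or below 0.132 CPM in every library. Cldn2 and Gjb1 reached 0.799 and 0.369 CPM in mesoderm E9.5 replicate 2.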

How the data were processed

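Polyadenylated RNA of 16 libraries was sequenced from a stranded kit, per the labels' protocols. The submitters' processing notes name cutadapt 1.16, STAR 2.6.0c, Cufflinks 2.2.1, bedtools 2.27.1 and build mm10. The deposited tables hold whole-number counts per gene and per exon bin, and FPKM per gene from the authors. The gene counter, its strand setting and its handling of reads shared by related genes are not given in the sources used here.

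Some genes, among them some members, are counted in the totals but are not reported here by name. The members and lists were chosen with earlier results of these data known. Counts were tested with edgeR 4.0.16 (R 4.3.3; quasi-likelihood test, TMM library scaling, low genes removed by filterByExpr with the 8 groups, 1 mean per group and 8 residual degrees of freedom), with p-values adjusted by Benjamini-Hochberg over all 15501 genes. Members with a mean of at least 5 CPM in a group are described singly. On simulated counts for the layer average, 83 percent of log2 changes of 1 and 100 percent of changes of 2 were recovered, and 2.14 percent of the calls were false. The changed genes there had means above 5 CPM, and libraries were drawn independently, without a kit or embryo batch effect. These rates therefore do not cover members at lower levels, single-stage comparisons or stage changes. FPKM were used for levels between genes and, with limma 3.58.1 on log2(FPKM + 0.1) or log2(FPKM + 1), as an alternative. Other alternatives were DESeq2 1.42.0, other scalings and filters, replicate blocks and leaving out each library. Embryo batch pairing comes from the labels, and deviations of same-batch libraries from their group means had r of 0.621 to 0.76, against 0.491 to 0.663 with other stages. Promoter sequences are from RefSeq (GRCm38.p6).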

Additional observations from a re-analysis of the deposited data

Results flagged for a closer look

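The log2 change from E9.5 to E12.5 differed between the layers for 3 members by the edgeR test of the difference itself. It was 5.10 for Gjb2, 3.99 for Cldn1 and 3.84 for Gja4, ectoderm change minus mesoderm change. The Gjb2 call ended without mesoderm E9.5 replicate 2 (3.33, edgeR adjusted p = 0.0627), and that of Gja4 with library totals (3.73, edgeR adjusted p = 0.0501) and in 8 of the fits without 1 library (0.0525 to 0.167). Gjb2 and Cldn1 climbed in ectoderm, and Gja4 fell in mesoderm.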

How the results depend on the processing

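No member's fold change turned its direction while called under any alternative run. Of 108 member results that were called, 85 were called in every setting and 23 were lost in at least 1, and of 76 not called, 52 stayed so in every setting. The tests of any difference among the 4 stages were not in these totals. Among those tests, Cldn12 in mesoderm was not called with library totals (edgeR adjusted p = 0.0883) or with limma at either pseudocount (limma adjusted p 0.0862 and 0.0886). Limma on log2(FPKM + 1) also ended the calls of Gja3 in ectoderm and of Cldn4 and Cldn9 in mesoderm (limma adjusted p 0.0643 to 0.696). Library totals ended that of Cldn9 in ectoderm (edgeR adjusted p = 0.0508). Counts of members were within 1.5 times of those given, with these exceptions. With 1 library left out, the members lower in ectoderm numbered 3 to 6 at E9.5, 2 to 5 at E11.5 and 1 to 6 at E12.5. From E9.5 to E12.5, 0 to 2 were then lower in ectoderm and 0 to 2 higher in mesoderm. The members lower in E12.5 than E9.5 ectoderm numbered 7 with the kit replicate block, 4 with all genes of at least 1 count kept, 3 with DESeq2 and 2 with limma on log2(FPKM + 1), and that last setting left 1 higher in mesoderm. Among all genes, 17.5 percent were lower in ectoderm with the kit block. Called in either direction in ectoderm were 2720 of 28342 genes with all kept, 3107 of 15501 with DESeq2 and 2695 of 15501 with that limma setting, which called 4565 in mesoderm. The kit replicate block gave 5 lower members at E10.5, beside 21.5 percent of all genes lower. The layer difference in the stage change was positive for 5 members with the kit or the embryo-batch replicate block and for 7 with limma at either pseudocount, where it was also negative for 1. Those added by limma were Cldn8, Cldn23, Gja5 and Gjb6 in the positive direction and Cldn9 in the negative. Of all genes, 10.8 and 11.7 percent were positive under the kit and the embryo block. Limma called 1838 of 15501 genes in either direction at a pseudocount of 0.1 and 2060 at 1. A difference among stages was called for 12 members in ectoderm with all genes kept and 11 with the kit replicate block, and for 16 in mesoderm with all genes kept. With all genes kept, 2927 of 28342 genes were called in ectoderm and 4304 in mesoderm, and the kit block called 32.9 percent of all genes in ectoderm. Beside the changes given in the report, the replicate blocks changed no other call. Calls at E9.5 of Cldn23, Gjb2 and Gjb6 ended with limma on log2(FPKM + 1), which shrinks the change of low genes, and the call of Cldn15 in mesoderm ended with all genes kept (edgeR adjusted p = 0.118) and with DESeq2 (adjusted p = 0.0515). Library totals in place of TMM moved the median of all genes to 0.19 in the mesoderm stage change and to -0.12 in the difference between layers. With 2 libraries a group and 3 counts worth 0.0687 to 0.115 CPM, differences among the 20 members below the filter were mostly not detectable at this depth.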

Other observations

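Some members differed between replicate 1 and replicate 2 in the same direction in many groups, where the replicate number also marks the RNA kit. Cldn5 was higher in replicate 1 in 8 of 8 groups. Gja1 and Cldn12 were higher in replicate 2 in 8 of 8 groups. Cldn4 and Gjb5 were higher in replicate 1 in 7 of 8 groups, and Gjc1 in replicate 2 in 7 of 8. The share of all genes with such an order was not counted, so these counts are not shown to be a trait of the members. The part of the kit, of the embryos or of the library in these differences cannot be told apart.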
